A study of Mus musculus with 10 samples.

Results

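Integrin and laminin subunit genes were followed through the differentiation of mouse embryonic stem cells towards neuromesodermal progenitors, which give rise to the spinal cord as well as to the mesoderm of the trunk. The genes were chosen by symbol from the deposited count table, as every gene named as an integrin alpha subunit, an integrin beta subunit or a laminin alpha, beta or gamma chain. This gave 37 of 52459 genes, namely 18 integrin alpha, 8 integrin beta, 5 laminin alpha, 3 laminin beta and 3 laminin gamma genes. RNA came from wild-type (WT) cells of the C57BL/6 line ES-Bruce4, with 2 libraries in each of 5 groups. The groups were D2 (day 2, which the labels call epiblast stem cells), D3 (day 3), D6 (day 6), D7G (day 7, after 24 h with 50 ng/ml human Gdf11 from day 6) and D7 (day 7 without Gdf11). Stem cells had been grown on mitotically inactive mouse embryo fibroblasts as feeders, which were depleted once before plating. All groups had received basic Fgf at 10 ng/ml from day 0. CHIR99021, a Gsk3 inhibitor that activates Wnt signalling, was added at 5 µM on day 2, so that D3, D6, D7G and D7 share it. Whether D2 cells were taken before CHIR99021 is not labelled. The cultures were split on day 3, and D6, D7G and D7 share the split. Whether D3 cells were taken before or after it is not labelled. The split therefore cannot be told apart from the other differences between D3 and D6. A single cell line was used. Whether the 2 replicates of a group came from separate cultures is not labelled, and the spread behind each p value may therefore be technical.

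Integrins are cell surface receptors built from an alpha and a beta subunit, and the alpha subunit largely sets which matrix protein is bound. Laminins are secreted trimers of an alpha, a beta and a gamma chain that assemble the basement membrane, with the alpha chain carrying the main receptor-binding domains. In the embryo, laminin lines the epiblast and the neural tube, and fibronectin with its integrin receptors is needed for mesoderm movement and somite formation. Gdf11, a ligand of the Tgf-β family, signals through Smad proteins in the tail end of the embryo.

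Libraries held 31078950 to 33418015 counts. The marker T had 230 and 232 CPM (counts scaled to a common library size) in D3, against 0.982 and 0.856 in D2, and Cdx2 had 154 and 154 CPM in D3, against 0.589 and 0.592 in D2. The summed CPM of 4 epiblast markers was 811 and 812 in D2 and 148 to 305 in the 8 later libraries, and T stood at 19.3 to 43.3 CPM in D6, D7G and D7. The defining markers of the labelled cells were thus detected. D7G replicates differed most from each other over all genes, at a chi-square of 4.41 averaged per gene, against 1.99 to 3.78 in the other groups.

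More of these genes fell than rose between day 3 and day 6, and most rose with Gdf11. Of the 37, 35 had enough counts to be tested, and Itgad and Itgax, which encode leukocyte integrin subunits, had at most 2 counts in any library. D7G against D7 gave 23 higher and 3 lower members, in a comparison in which 22.5% of the 18818 tested genes were higher and 18.2% lower. Against this, 19 members were lower and 6 higher in D6 against D3, where 33.3% of all tested genes were lower and 32.4% higher. D3 against D2 gave 12 higher and 8 lower members (29.6% and 28.9% of all genes), shares close to the background. D7 against D6 gave 15 higher and 4 lower (20.5% and 15.6% of all genes), and D7G against D6 gave 26 higher and 2 lower (30.6% and 22.2%). D7 against D6, D7G against D7 and D7G against D6 share libraries, so their counts are not independent of each other. Beside the Gdf11 counts, 5 neural crest markers summed to 81.4 and 87.3 CPM in D7G, against 34.3 and 32.4 in D7, and 3 of the 5 were higher. Ets1, a transcription factor gene that endothelial cells also use, averaged 69.4 of these CPM in D7G, against 22.5 in D7. Tfap2a had 3.48 and 3.26 CPM in D7G, against 1.61 and 1.93 in D7. Snai2 had 9.65 and 11.6 CPM in D7G, against 8.40 and 8.16 in D7, while Sox10 and Foxd3 stayed under 1 CPM in both groups. Of 5 endothelial markers, 0 were called higher and 0 lower in D7G against D7. The part of these markers in the result was not tested. A gene is called here at an adjusted p under 0.05 in edgeR's quasi-likelihood test with Benjamini-Hochberg adjustment over all tested genes. In bulk RNA, fewer cells of a type and less RNA per cell cannot be told apart.

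The median log2 fold change of the tested members was 0.52 in D7G against D7, beside 0.02 over all tested genes, and -0.37 in D6 against D3, beside -0.01. It was 0.20 in D3 against D2, 0.29 in D7 against D6 and 0.69 in D7G against D6, beside 0.00, 0.04 and 0.06 over all genes. At least 2-fold and called, 9 members were higher and 0 lower in D7G against D7 (4.25% and 0.957% of all genes), and 4 were higher and 10 lower in D6 against D3 (6.95% and 14.1%). The 9 became 5 without D7 replicate 2. In D3 against D2 the counts were 5 higher and 1 lower (8.67% and 5.51% of all genes), or 3 higher without D2 replicate 1. D7 against D6 had 2 higher and 0 lower (2.63% and 0.707%), and D7G against D6 had 13 higher and 0 lower (8.35% and 1.23%).

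D6 against D3 and D7G against D7 share no library. Of the 19 members lower in D6 against D3, 14 were higher in D7G against D7, which is 73.7% of the 19 and 60.9% of the 23 that rose with Gdf11. Over all tested genes the same overlap was 2040 of 6263, or 32.6% of the genes lower in D6 and 48.1% of the 4241 genes higher in D7G. Of all 35 tested members, 23 were higher in D7G against D7, beside 22.5% of all tested genes. A large overlap among the members follows in part from these counts alone. It is therefore not read as a link between the fall and the rise. Among the 14 were Itga3, Itgav, Itgb1, Itgb3, Itgb4 and Lamb3. DESeq2, which called fewer members, gave 8. The mean CPM was highest in D7G for 17 of the 35 tested members, in D2 for 9, in D3 for 6, in D7 for 3 and in D6 for 0. The matching shares over all tested genes were not computed, so these counts are not read as a trait of the members.

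**Figure D1:**
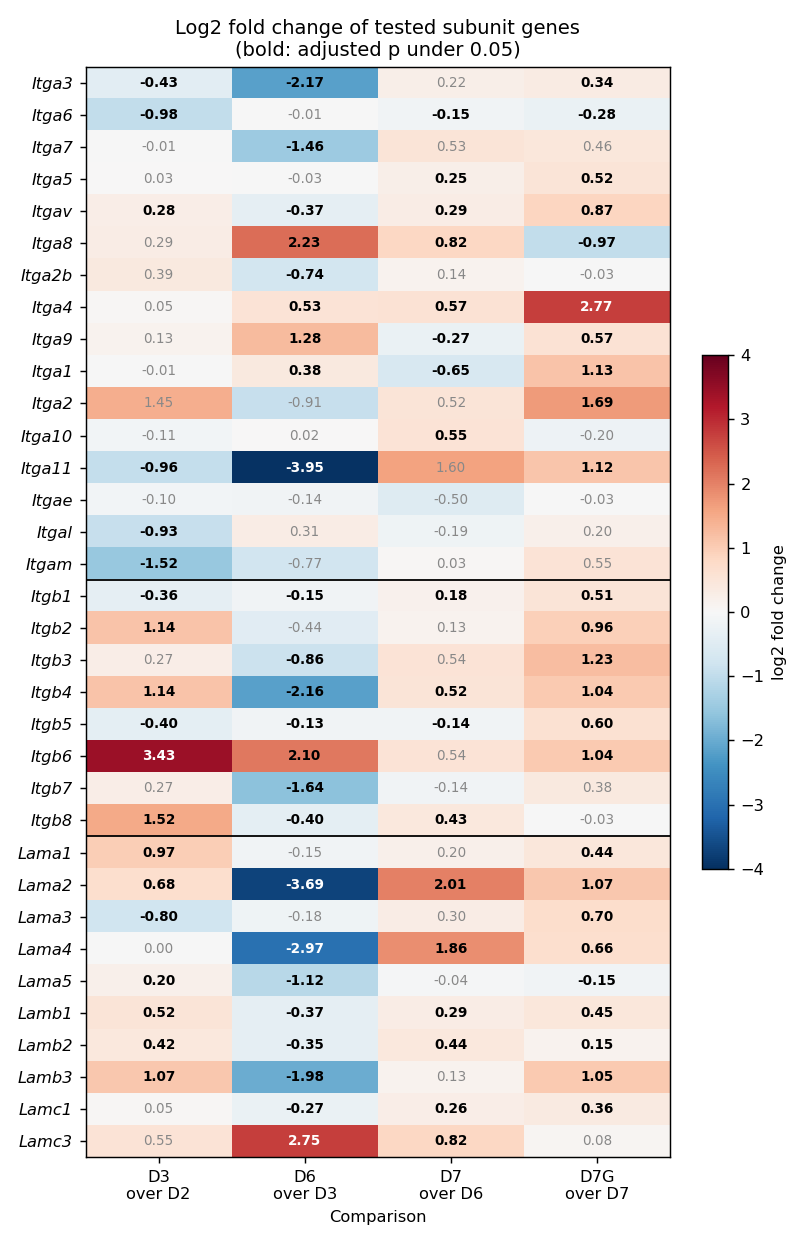
Log2 fold changes of tested integrin and laminin subunit genes (rows, grouped as integrin alpha, integrin beta and laminin chains) in D3 over D2, D6 over D3, D7 over D6 and D7G over D7 (columns); blue is lower, red is higher, and bold marks an adjusted p under 0.05. The second column is mostly blue, down to Itga11 at -3.95, and the last column is mostly red, up to Itga4 at 2.77.

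The laminin-binding alpha subunit genes Itga6 and Itga3 fell, Itga6 by day 3 and Itga3 mainly by day 6. Itga6, the alpha subunit of the main laminin receptors of the epiblast, had 295 and 301 CPM in D2, 146 and 157 in D3, 157 and 144 in D6, 113 and 111 in D7G and 140 and 131 in D7. The log2 fold change was -0.98 ± 0.05 (SE) in D3 against D2 (adjusted p = 3.51e-13) and -0.28 ± 0.05 in D7G against D7 (adjusted p = 8.18e-05), and neither pair of groups overlapped. D6 and D3 overlapped. In D7 against D6 Itga6 passed at -0.15 ± 0.05 (adjusted p = 0.0164), but not without D6 replicate 1 (adjusted p = 0.239), without D7 replicate 2 (adjusted p = 0.0811) or with library totals as the scaling (adjusted p = 0.0504).

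Itga3, whose protein also pairs with beta1 to bind laminin, fell mainly after day 3. It had 160 and 164 CPM in D2, 111 and 129 in D3, 24.6 and 28.7 in D6, 42.6 and 36.2 in D7G and 31.6 and 30.6 in D7. It fell by 2.17 ± 0.08 on the log2 scale in D6 against D3 (adjusted p = 4.26e-15), after a smaller decrease of -0.43 ± 0.07 in D3 against D2 (adjusted p = 1.38e-05). With Gdf11 it was 0.34 ± 0.08 higher (adjusted p = 0.00237), a call lost without D7G replicate 1 (adjusted p = 0.102). Itga7, a laminin-binding subunit best known from muscle, was low throughout, with means of 2.66 ± 0.05 CPM in D3 and 0.967 ± 0.28 in D6 (SD, n = 2 each), and it was lower in D6 against D3 (log2 fold change -1.46 ± 0.23, adjusted p = 1.34e-05).

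The subunits that recognise the Arg-Gly-Asp (RGD) motif of fibronectin and vitronectin include Itga5 and Itgav, which were highest in D7G. Itga5, the classical fibronectin receptor subunit, stood at 55.8 to 65.4 CPM in the 6 libraries of D2, D3 and D6, and at 104 and 99.3 CPM in D7G, against 71.6 and 69.7 in D7. The Gdf11 difference was 0.52 ± 0.06 on the log2 scale (adjusted p = 2.37e-07). Itgav, which with several beta subunits binds vitronectin, fibronectin and latent Tgf-β, had 54.0 and 54.2 CPM in D2, 64.9 and 66.2 in D3, 49.4 and 51.8 in D6, 114 and 112 in D7G and 64.3 and 59.1 in D7. D7G stood clear of every other library, at 0.87 ± 0.05 on the log2 scale over D7 (adjusted p = 9.22e-12). In D7 against D6 Itgav rose by 0.29 ± 0.05 (adjusted p = 0.000143).

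Itga8, which binds nephronectin and is best known from kidney development, rose to day 7 without Gdf11 and was lower with it. It had 2.39 and 2.76 CPM in D2, 3.34 and 2.96 in D3, 16.4 and 13.1 in D6, 12.6 and 14.0 in D7G and 27.2 and 24.9 in D7. The rise was 2.23 ± 0.13 on the log2 scale in D6 against D3 (adjusted p = 6.63e-12) and 0.82 ± 0.09 in D7 against D6 (adjusted p = 1.36e-06). With Gdf11 it was 0.97 ± 0.09 lower than in D7 (log2 fold change -0.97, adjusted p = 7.56e-08), at a level that overlapped that of D6. Itga8, Itga6 and Lama5 were the 3 members lower in D7G against D7. Npnt, the gene of nephronectin, stood at 14.4 and 14.2 CPM in D7G, against 10.7 and 11.7 in D7 (log2 fold change 0.35 ± 0.09, adjusted p = 0.00337).

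Itga4 showed the largest called change with Gdf11 of all members. Its product pairs with beta1 or beta7 and binds Vcam1 and an alternatively spliced part of fibronectin. The gene lies at chr2:79255426-79333123 (mm10, plus strand). It had 2.55 and 2.27 CPM in D2, 2.57 and 2.44 in D3, 3.64 and 3.61 in D6, 36.7 and 36.7 in D7G and 5.53 and 5.24 in D7. Each D7G library was far above all others, and D7 stood above D6. The log2 fold change was 2.77 ± 0.08 in D7G against D7 (adjusted p = 3.47e-15) and 3.34 ± 0.09 in D7G against D6 (adjusted p = 2.08e-16), beside 0.57 ± 0.12 in D7 against D6 (adjusted p = 0.00068) and 0.53 ± 0.14 in D6 against D3 (adjusted p = 0.00179). Cerkl, on the opposite strand, shares 8.04% of the Itga4 exon length and had 5 to 17 counts per library.

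Itga9, the relative of Itga4 that binds tenascin C and osteopontin, rose earlier. It had 11.1 and 11.5 CPM in D2, 12.5 and 12.3 in D3, 31.5 and 28.7 in D6, 35.9 and 38.1 in D7G and 25.9 and 24.1 in D7. It was 1.28 ± 0.07 higher in D6 against D3 (adjusted p = 5.01e-12) and 0.57 ± 0.06 higher in D7G against D7 (adjusted p = 7.23e-07). The -0.27 ± 0.07 of D7 against D6 (adjusted p = 0.00358) was lost without D6 replicate 1 (adjusted p = 0.0694).

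The promoters of Itga4, Itgav and Itga8 are shown because Itga4 rose most with Gdf11, Itgav rose and Itga8 fell most. Each run is the 250 bases before the RefSeq start on GRCm38.p6 in the direction of the gene, at chr2:79255176-79255425 (plus strand), chr2:83724147-83724396 (plus strand) and chr2:12301945-12302194 (minus strand), with capitals for the 5-letter Smad box CAGAC read on either strand.
Itga4: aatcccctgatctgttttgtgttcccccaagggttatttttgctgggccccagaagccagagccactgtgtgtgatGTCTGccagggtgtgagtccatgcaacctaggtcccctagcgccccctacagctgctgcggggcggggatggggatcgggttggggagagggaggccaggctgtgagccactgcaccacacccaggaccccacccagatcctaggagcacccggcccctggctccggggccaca
Itgav: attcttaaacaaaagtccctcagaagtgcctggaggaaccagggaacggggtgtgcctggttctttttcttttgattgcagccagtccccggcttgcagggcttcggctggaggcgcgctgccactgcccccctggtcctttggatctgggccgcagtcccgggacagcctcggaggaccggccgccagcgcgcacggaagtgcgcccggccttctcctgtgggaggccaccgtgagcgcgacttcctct
Itga8: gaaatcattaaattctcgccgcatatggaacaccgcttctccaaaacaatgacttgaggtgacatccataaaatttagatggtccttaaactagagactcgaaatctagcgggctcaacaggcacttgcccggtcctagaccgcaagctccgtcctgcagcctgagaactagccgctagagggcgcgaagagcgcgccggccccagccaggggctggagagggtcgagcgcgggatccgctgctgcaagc
Itga4 held 1 Smad box, 174 bases before the start, and the windows of Itgav and Itga8 held none. The Smad box was found in 15 of the 26 RefSeq promoters that matched 23 member genes, and in 42.2% of all 32851 promoters of that length. By the Gdf11 call, 10 of 15 member genes that were higher in D7G, 1 of 2 that were lower and 2 of 5 that were not called had a box. Itgax, not tested, had one too. These counts are per gene, with a box in any promoter of the gene counted, while the 42.2% is per promoter. A share per gene over all genes was not computed. The palindrome GTCTAGAC was in 0 member promoters and 0.167% of all, the Tcf/Lef box CTTTGAA or CTTTGAT in 2 of 26 and 7.48%, and the GC box GGGCGG in 9 of 26 and 32.7%, each on both strands. A match of letters is a description and does not show binding.

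The collagen-binding and leukocyte subunits were low. Itga1, a collagen and laminin receptor subunit, had 4.12 to 4.31 CPM in D2 and D3, 5.11 and 5.78 in D6, 6.86 and 8.36 in D7G and 3.86 and 3.07 in D7. It was 1.13 ± 0.14 higher in D7G against D7 (adjusted p = 1.46e-06) and lower in D7 against D6 (log2 fold change -0.65 ± 0.15, adjusted p = 0.00155). Its 0.38 ± 0.14 in D6 against D3 (adjusted p = 0.023) was lost under DESeq2, with library totals as the scaling and without D3 replicate 1, D3 replicate 2 or D6 replicate 2 (adjusted p up to 0.145). Itga11, a receptor subunit of fibrillar collagen, had 2.78 and 3.26 CPM in D2, 1.65 and 1.45 in D3, 0.161 and 0.0323 in D6, 0.658 and 0.653 in D7G and 0.389 and 0.211 in D7. It fell by 3.95 ± 0.43 on the log2 scale in D6 against D3 (adjusted p = 9.56e-08), and by 3.23 without D6 replicate 2 or 5.42 without D6 replicate 1. Its 1.12 in D7G against D7 (adjusted p = 0.0303) was lost under DESeq2, with no filter on low counts and without D7G replicate 1, D7G replicate 2 or D7 replicate 2 (adjusted p up to 0.252), and its -0.96 in D3 against D2 was -0.21 in the second count table (adjusted p = 0.354).

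Itga2 had at most 0.932 CPM, reached in D7G replicate 2, and its 1.69 ± 0.45 in D7G against D7 (adjusted p = 0.00483) became 1.03 without that library (adjusted p = 0.173) and lost its call without D7 replicate 2 (adjusted p = 0.0593). Itga10 stood between 2.31 and 3.88 CPM in all libraries and was called once, at 0.55 ± 0.16 in D7 against D6 (adjusted p = 0.0125), a call lost under DESeq2 and without D6 replicate 1, D6 replicate 2 or D7 replicate 2 (adjusted p up to 0.104). Gm42957 covers 33.5% of the Itga10 exon length on the same strand and had 0 to 4 counts. Among leukocyte subunits, Itgam had 1.60 and 1.58 CPM in D2 and 0.551 and 0.555 in D3 (log2 fold change of D3 over D2 -1.52 ± 0.25, adjusted p = 3.53e-05). The second count table, with 5024 in place of 6377 bases for Itgam, held 55 of its counts over all libraries, against 206, which was too few for a test. Itgal was lower in D3 against D2 at -0.93 ± 0.29 (adjusted p = 0.00916), lost without D2 replicate 1 (adjusted p = 0.0759) or D3 replicate 2 (adjusted p = 0.131), and Itgae, at most 0.987 CPM, was called in no comparison. Ptprc, the pan-leukocyte marker, was at most 0.0987 CPM in every library. The list of 6 leukocyte markers that holds it summed to 15.8 to 31.7 CPM, mostly from Coro1a, Cd68 and Laptm5. Of the 4 tested, 2 were higher and 1 lower in D3 against D2 (29.6% and 28.9% of all genes). Coro1a had 18.9 and 17.2 CPM in D2, against 8.57 and 6.97 in D3. The other main markers of the sum went the other way. Cd68 had 5.96 and 7.31 CPM in D2, against 13.5 and 12.5 in D3, and Laptm5 had 6.19 and 5.46, against 7.35 and 7.68. Their part in the result was not tested. Itga2b, the platelet subunit, stood at 1.61 to 3.48 CPM while 5 platelet markers summed to at most 0.263 CPM, and it was lower in D6 against D3 (log2 fold change -0.74 ± 0.19, adjusted p = 0.00213).

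Among beta subunits, Itgb1, the partner of most of the alpha subunits above, made up 80.7% to 84.8% of the summed beta level per kilobase of gene length in the group means. It had 601 and 618 CPM in D2, 469 and 483 in D3, 425 and 430 in D6, 684 and 691 in D7G and 497 and 469 in D7. The Gdf11 difference was 0.51 ± 0.04 on the log2 scale (adjusted p = 6.29e-10), and D7G was the highest group with no overlap. D3 against D2 was -0.36 ± 0.04 (adjusted p = 3.69e-08). The smaller 0.18 ± 0.04 of D7 against D6 (adjusted p = 0.00068) was lost without D7 replicate 1 (adjusted p = 0.0881).

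Itgb5, an alphav partner in the vitronectin receptor, had 91.9 and 97.3 CPM in D2, 58.3 to 72.6 in D3, D6 and D7, and 92.0 and 88.3 in D7G (log2 fold change of D7G over D7 0.60 ± 0.05, adjusted p = 2.34e-09). Its decreases of 0.13 to 0.14 in D6 against D3 and D7 against D6 (adjusted p = 0.0217 and 0.0203) were lost under 6 and 4 of the alternatives (adjusted p up to 0.134 and 0.0791). Itgb3, the other classical alphav partner, had 1.70 and 1.51 CPM in D2, 1.96 and 1.91 in D3, 1.06 and 1.06 in D6, 3.67 and 3.60 in D7G and 1.50 and 1.59 in D7. It was 1.23 ± 0.17 higher in D7G against D7 (adjusted p = 5.96e-06), and in D6 against D3 it was lower (log2 fold change -0.86 ± 0.20, adjusted p = 0.000959). Itgb6 and Itgb8 form the alphav receptors known for activating latent Tgf-β. Itgb6 had 1 count in both D2 libraries together and 14 in D3, a ratio of 13.1 (95% counting interval 1.99 to 554), then 0.869 and 1.00 CPM in D6, against 0.276 and 0.154 in D3 (adjusted p = 0.000231). It reached 3.38 and 2.24 CPM in D7G, against 1.50 and 1.23 in D7 (log2 fold change 1.04 ± 0.23, adjusted p = 0.00116). Itgb8 had 17.2 and 15.8 CPM in D3, against 6.42 and 5.10 in D2 (1.52 ± 0.12, adjusted p = 1.52e-09), and in D7G it overlapped D7. Its -0.40 in D6 against D3 and 0.43 in D7 against D6 were lost without D6 replicate 2 (adjusted p = 0.0922 and 0.103), and the second of these also without D7 replicate 1 (adjusted p = 0.0533).

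Itgb4, the beta partner of alpha6 in hemidesmosomes, changed in the same direction as Lamb3, which encodes a beta chain of epithelial laminin, in D3 against D2, D6 against D3 and D7G against D7. Itgb4 had 9.43 and 8.69 CPM in D2, 19.0 and 20.9 in D3, 4.25 and 4.68 in D6, 12.7 and 13.5 in D7G and 5.68 and 7.10 in D7. It was 1.14 ± 0.10 higher in D3 against D2 (adjusted p = 3.79e-09), 2.16 lower in D6 against D3 (log2 fold change -2.16 ± 0.11, adjusted p = 7.67e-13) and 1.04 ± 0.11 higher in D7G against D7 (adjusted p = 1.68e-07). Its 0.52 ± 0.13 in D7 against D6 was lost without D7 replicate 2 (adjusted p = 0.124). Lamb3 had 2.62 and 3.62 CPM in D2, 6.22 and 6.91 in D3, 1.58 and 1.74 in D6, 3.85 and 3.67 in D7G and 1.73 and 1.90 in D7, with log2 fold changes of 1.07 ± 0.15 in D3 against D2 (adjusted p = 2.91e-06), -1.98 ± 0.17 in D6 against D3 (adjusted p = 1.80e-09) and 1.05 ± 0.18 in D7G against D7 (adjusted p = 7.05e-05). Lama3, an alpha chain gene of epithelial laminin, was 0.80 ± 0.17 lower in D3 against D2 (log2 fold change -0.80, adjusted p = 0.000478) and 0.70 ± 0.17 higher in D7G against D7 (adjusted p = 0.00215). Beside these, 6 surface epithelium markers summed to 394 and 324 CPM in D7G, against 198 and 209 in D7, and to 162 and 178 CPM in D6, against 475 and 594 in D3. Nearly all of each sum came from Epcam, Krt8 and Krt18, which simple epithelia share, while Krt5, Krt14 and Trp63, markers of stratified epithelium, had at most 0.462 CPM in any library. Their part in the result was not tested.

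Itgb7 and Itgb2, beta subunits known from leukocytes, completed the family. Itgb7 was lower in D6 against D3, at 0.965 and 1.55 CPM in D6, against 3.92 and 3.95 in D3 (log2 fold change -1.64 ± 0.20, adjusted p = 3.58e-07). Itgb2 had 1.44 and 1.31 CPM in D7G, against 0.688 and 0.722 in D7 (0.96 ± 0.32, adjusted p = 0.0226), a call lost under DESeq2 and without D7G replicate 1, D7 replicate 1 or D7 replicate 2 (adjusted p 0.0923 to 0.122). Its 1.14 ± 0.41 in D3 against D2 was 0.49 without D2 replicate 2 (adjusted p = 0.322) and was also lost under DESeq2 and without D3 replicate 1 (adjusted p = 0.183).

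**Figure D2:**
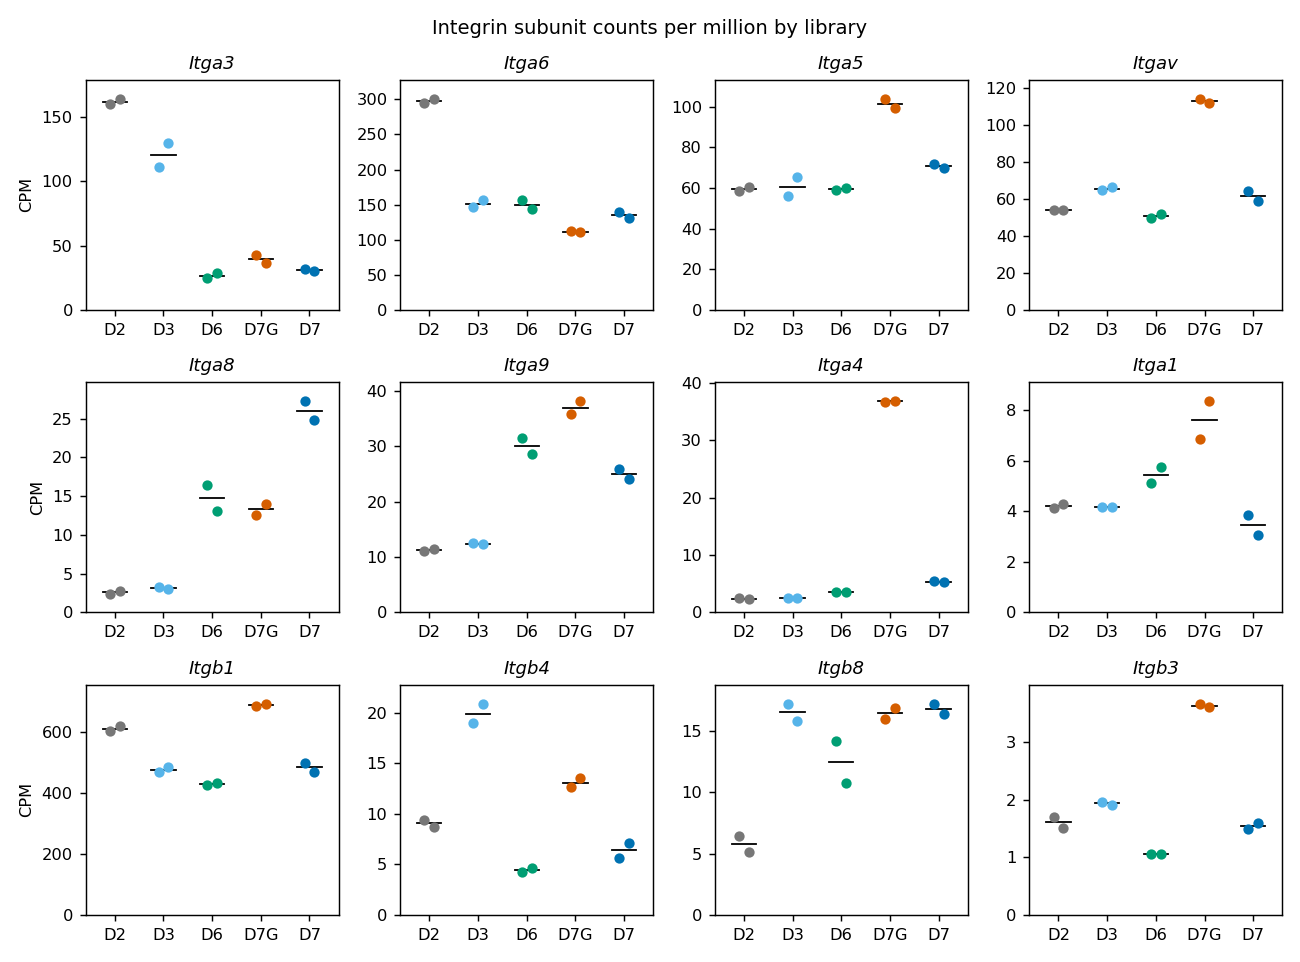
CPM (TMM-scaled) of 12 integrin subunit genes in each library (points) of D2, D3, D6, D7G and D7, with the group mean as a black line and a separate linear axis from 0 per gene. Itga6 and Itga3 are highest in D2, Itga8 is highest in D7, and Itga4, Itgav, Itga5, Itgb1 and Itgb3 are highest in D7G with no overlap with D7.

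Set per kilobase of the deposited gene length, so that genes can be compared, laminin-binding subunits made up a smaller and RGD-binding subunits a larger share of the alpha level in every later group than in D2. Laminin-binding subunits held 72.9 ± 0.12% of the summed alpha level in D2, 61.4 ± 0.53% in D3, 45.3 ± 0.26% in D6, 30.4 ± 0.87% in D7G and 40.3 ± 0.04% in D7 (SD, n = 2 each). RGD-binding subunits held 22.7 ± 0.13% in D2, 33.4 ± 0.17% in D3, 43.3 ± 0.40% in D6, 55.4 ± 0.19% in D7G and 50.0 ± 0.08% in D7. Alpha4 and alpha9 together held 1.94% in D2, 2.89% in D3, 8.82% in D6, 11.6% in D7G and 7.11% in D7. The shares were not tested, since an exact two-sided permutation test of a single value cannot go below p = 0.333 with 2 against 2 libraries. The levels behind the shares moved at different times. The summed laminin-binding level was 61.6 ± 0.99 CPM per kilobase in D2, 38.1 ± 3.1 in D3, 21.4 ± 0.48 in D6, 19.5 ± 0.93 in D7G and 20.6 ± 0.76 in D7 (SD, n = 2 each). The summed RGD-binding level was 19.2 ± 0.45 CPM per kilobase in D2, 20.8 ± 1.6 in D3, 20.5 ± 0.15 in D6, 35.5 ± 0.81 in D7G and 25.6 ± 0.92 in D7. Up to day 6 the laminin-binding level went down beside an RGD-binding level of 18.9 to 21.9 in the single libraries, and on day 7 the RGD-binding level was higher than in D6, most in D7G, beside a laminin-binding level of 18.9 to 21.8 in D6, D7G and D7.

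With the length of the longest coding transcript in place of the gene length, the laminin-binding share was 79.4% in D2, 68.1% in D3, 57.4% in D6, 39.4% in D7G and 51.7% in D7, and the RGD-binding share was 17.3%, 27.7%, 33.8%, 48.0% and 40.6% in the same groups. Which class was larger in D7 therefore depends on the length used, while the laminin-binding share was lowest in D7G with either. The level of Itga5 over that of Itga6, per kilobase of gene length, averaged 0.406 in D2, 0.812 in D3, 0.807 in D6, 1.85 in D7G and 1.06 in D7. With the transcript length it was 0.196 in D2, 0.393 in D3, 0.391 in D6, 0.894 in D7G and 0.513 in D7, so that which of the pair stood higher in D7G and D7 depends on the length used. The ratio was highest in D7G with either length.

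**Figure D3:**
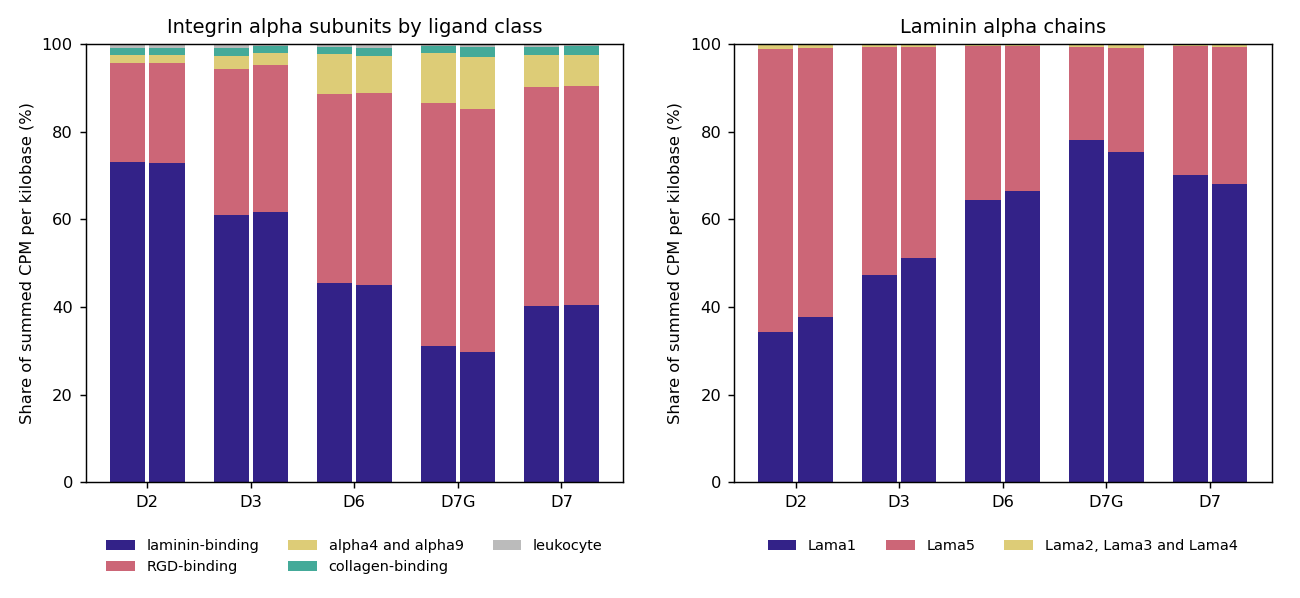
Share (%) of the summed CPM per kilobase of gene length in each of the 10 libraries, 2 bars per group: left, integrin alpha subunits by the ligand class they bind; right, laminin alpha chains. The laminin-binding share was 72.9% in D2 and 30.4% in D7G, and the Lama1 share was 36.1% in D2 and 76.7% in D7G.

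Among the ligands, the balance between the laminin alpha chain genes Lama5 and Lama1 shifted, with both well expressed in every group. Lama5, the chain of the widespread epithelial laminins, had 446 and 450 CPM in D2, 513 and 517 in D3, 226 and 247 in D6, 214 and 199 in D7G and 221 and 237 in D7. It fell by 1.12 ± 0.04 on the log2 scale in D6 against D3 (adjusted p = 2.18e-14), and was -0.15 ± 0.05 in D7G against D7 (adjusted p = 0.00997), which was lost without D7G replicate 2 (adjusted p = 0.0822) or D7 replicate 2 (adjusted p = 0.0835). Lama1, the chain of the first laminin of the embryo, had 199 and 232 CPM in D2, 389 and 457 in D3, 346 and 414 in D6, 664 and 523 in D7G and 441 and 432 in D7. It was 0.97 ± 0.09 higher in D3 against D2 (adjusted p = 2.72e-08) and 0.44 ± 0.09 higher in D7G against D7 (adjusted p = 0.000636). Per kilobase, Lama1 over Lama5 was 0.533 and 0.618 in D2, 0.908 and 1.06 in D3, 1.83 and 2.01 in D6, 3.71 and 3.15 in D7G and 2.38 and 2.18 in D7.

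Lama2 and Lama4, chains of muscle and vessel basement membranes, were minor and fell deeply by day 6. Lama2 had 1.59 and 1.42 CPM in D3, 0.0965 and 0.129 in D6, 0.971 and 0.994 in D7G and 0.359 and 0.572 in D7, with -3.69 ± 0.38 in D6 against D3 (adjusted p = 4.54e-08). Its 1.07 ± 0.30 in D7G against D7 (adjusted p = 0.00718) was lost under DESeq2 and without D7 replicate 1 (adjusted p = 0.111). The 2.01 in D7 against D6 was lost without D7 replicate 2 (adjusted p = 0.0609), and the 0.68 in D3 against D2 under DESeq2 and without D2 replicate 1, D2 replicate 2 or D3 replicate 1 (adjusted p up to 0.183). Lama4 had 2.24 and 2.62 CPM in D3, 0.225 and 0.387 in D6, 1.57 and 1.99 in D7G and 1.20 and 1.05 in D7. It was -2.97 ± 0.28 in D6 against D3 (adjusted p = 1.44e-08) and 1.86 ± 0.33 in D7 against D6 (adjusted p = 0.000203). Its 0.66 ± 0.22 in D7G against D7 was lost under DESeq2 and without D7G replicate 2, D7 replicate 1 or D7 replicate 2 (adjusted p up to 0.224). The markers of fibroblast feeders moved in D6 against D3 as well, where Lama2, Lama4 and Itga11 were lower. Of 7 such markers, 6 were lower and Col3a1 was higher (33.3% and 32.4% of all genes). Their median log2 fold change was -3.58, beside -0.01 over all genes. Thy1 had 0.354 and 0.419 CPM in D6, against 8.15 and 7.43 in D3, and Dcn had 0.450 and 0.129 CPM in D6, against 7.59 and 8.60 in D3. The sum of the 7 was 197 and 185 CPM in D6, against 293 and 284 in D3. Their part in the result was not tested.

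Lamb1 and Lamc1, the beta and gamma chains shared by most embryonic laminins, were the main chains of their kind, with 78.7% to 81.6% of the beta and 94.5% to 97.3% of the gamma level per kilobase. Lamb1 had 307 and 321 CPM in D2, 419 and 480 in D3, 329 and 365 in D6, 634 and 524 in D7G and 430 and 417 in D7 (D7G against D7 0.45 ± 0.07, adjusted p = 2.35e-05). Lamc1 had 543 and 584 CPM in D2, 549 and 621 in D3, 447 and 521 in D6, 811 and 678 in D7G and 575 and 586 in D7 (D7G against D7 0.36 ± 0.07, adjusted p = 0.000399). Without D7G replicate 1 the Gdf11 difference was 0.23 for Lama1, 0.28 for Lamb1 and 0.20 for Lamc1, each still called. In D6 against D3, Lamc1 at -0.27 lost its call under DESeq2 and without D3 replicate 2 or D6 replicate 1 (adjusted p up to 0.0851), while Lamb1 at -0.37 kept it under every alternative run. Both were called in D7 against D6, at 0.29 and 0.26, and lost that call under DESeq2 and without D6 replicate 1 or D7 replicate 1 (adjusted p up to 0.141), Lamc1 also without filtering or without D7 replicate 2.

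Lamb2, the beta chain of synaptic and kidney laminins, had 76.8 and 75.6 CPM in D7G, against 66.8 and 70.8 in D7 (0.15 ± 0.05, adjusted p = 0.0185, lost under 8 alternatives with adjusted p up to 0.274), and was 0.44 ± 0.05 higher in D7 against D6 (adjusted p = 1.41e-06). Lamc3, a gamma chain of brain and retina laminins, had 0.393 and 0.362 CPM in D2, 0.612 and 0.493 in D3, 3.60 and 3.90 in D6, 5.58 and 8.45 in D7G and 6.55 and 6.71 in D7. It was higher in D6 against D3, at 2.75 ± 0.26 (adjusted p = 1.47e-08), rose again in D7 against D6 at 0.82 ± 0.16 (adjusted p = 0.000554), and overlapped between D7G and D7.

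The replicates of Lama1 and Lamb1 were ordered like endoderm markers. Parietal endoderm, an extraembryonic cell type, is known for strong secretion of the alpha1, beta1 and gamma1 laminin. The summed CPM of 7 endoderm markers was 125 and 129 in D2, 160 and 176 in D3, 154 and 186 in D6, 262 and 197 in D7G and 189 and 176 in D7. Dab2 gave the largest part of each sum and was already high in D2. It had 93.5 and 96.2 CPM in D2, 117 and 85.2 in D7G and 98.1 and 92.1 in D7. Singly, Gata4, Gata6, Sox7, Sox17, Foxa2 and Dab2 had the replicate order of the sum in all 5 groups, and Afp in all but D2. In all 5 groups the replicate with the higher sum also had the higher Lama1 and Lamb1, and in 4 of 5 for Lamc1. This held in 5 of 5 groups for Itga3, Itga5, Itgav, Lama1 and Lamb1, and for 3.88% of all tested genes. Gata4 was 62.1 and 47.7 CPM in D7G, against 40.5 and 37.8 in D7 (0.49 ± 0.09, adjusted p = 0.000198), and Sox17 was 35.7 and 28.1 CPM, against 21.6 and 21.1 (0.58 ± 0.10, adjusted p = 0.000112). Of the 7, 5 were higher and 0 lower in D7G against D7 (22.5% and 18.2% of all genes). Afp had 6.71 and 2.64 CPM in D7G, against 0.778 and 0.481 in D7. Their part in the laminin result was not tested.

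**Figure D4:**
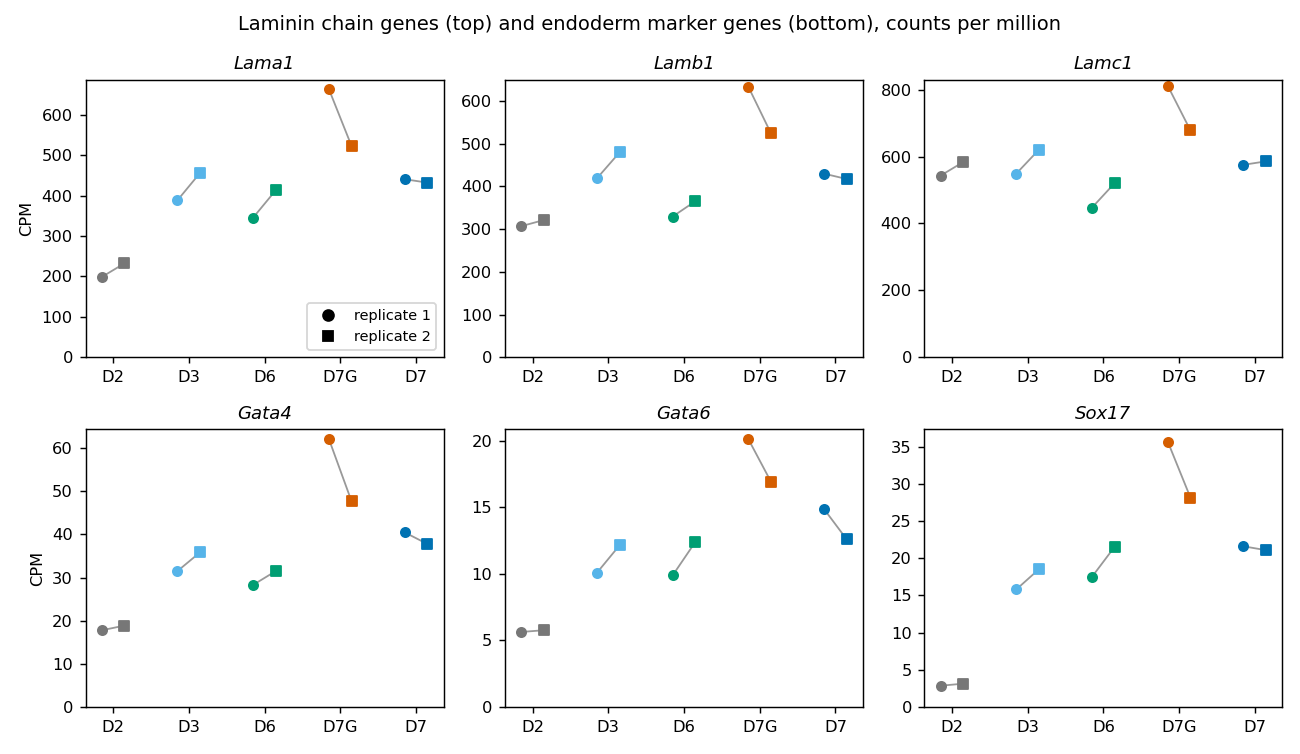
CPM of Lama1, Lamb1 and Lamc1 (top) and of the endoderm markers Gata4, Gata6 and Sox17 (bottom) in each library, with a grey line joining the replicates of a group. D7G replicate 1 is the highest library in all 6 panels, at 664 CPM for Lama1 and 62.1 CPM for Gata4.

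Partners of the receptors and of laminin were read from 4 lists. Of 22 tested integrin ligands other than laminins, 18 were higher and 1 lower in D7G against D7, with a median log2 fold change of 0.59 beside 0.02 over all genes, of which 22.5% were higher and 18.2% lower. Tnc, which encodes tenascin C, a ligand of alpha9 and alphav integrins, had 95.5 and 130 CPM in D7G, against 6.64 and 7.70 in D7 (3.98 ± 0.13, adjusted p = 6.82e-15). Vcam1, whose product is the cell surface ligand of alpha4, had 13.1 and 14.1 CPM in D7G, against 3.47 and 4.09 in D7 (1.85 ± 0.11, adjusted p = 9.76e-11). Fn1, the gene of fibronectin, had 1124 and 1136 CPM in D7G, against 748 and 779 in D7 (0.57 ± 0.05, adjusted p = 9.98e-09). The thrombospondin gene Thbs1 changed by 2.58 ± 0.08 (adjusted p = 6.82e-15). Vtn, which encodes vitronectin, was the ligand that fell, with 1.10 and 0.590 CPM in D7G, against 2.66 and 3.01 in D7 (-1.75 ± 0.27, adjusted p = 2.99e-05).

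Col1a1 at 3.14 ± 0.08 (adjusted p = 3.35e-16), Col1a2 at 2.40 ± 0.08 (adjusted p = 1.97e-14) and Postn at 1.85 ± 0.13 also rose, and these 3 are in the list of fibroblast feeder markers too. The 7 feeder markers summed to 946 and 1097 CPM in D7G, against 323 and 301 in D7. Of the 7, 6 were higher and 0 lower (22.5% and 18.2% of all genes). Of the sum, Col3a1 gave 598 and 719 CPM in D7G, against 272 and 250 in D7. Thy1 had 1.13 and 1.09 CPM in D7G, against 0.598 and 0.421 in D7, and Dcn had 0.658 and 0.684 CPM, against 0.778 and 0.271. Both were below their 7.43 to 9.58 (Thy1) and 4.35 to 8.60 CPM (Dcn) of D2 and D3. Other markers went the other way. Lum had 13.2 and 17.2 CPM in D7G, against 1.61 and 0.632 in D7 and 0.296 to 0.493 in D2 and D3. Col1a1 had 231 and 252 CPM in D7G, against 47.4 to 101 in D2 and D3. Col3a1 also stood above its D2 and D3 libraries, and Col1a2 and Postn lay within their range. Their part in the ligand result was not tested.

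**Figure D5:**
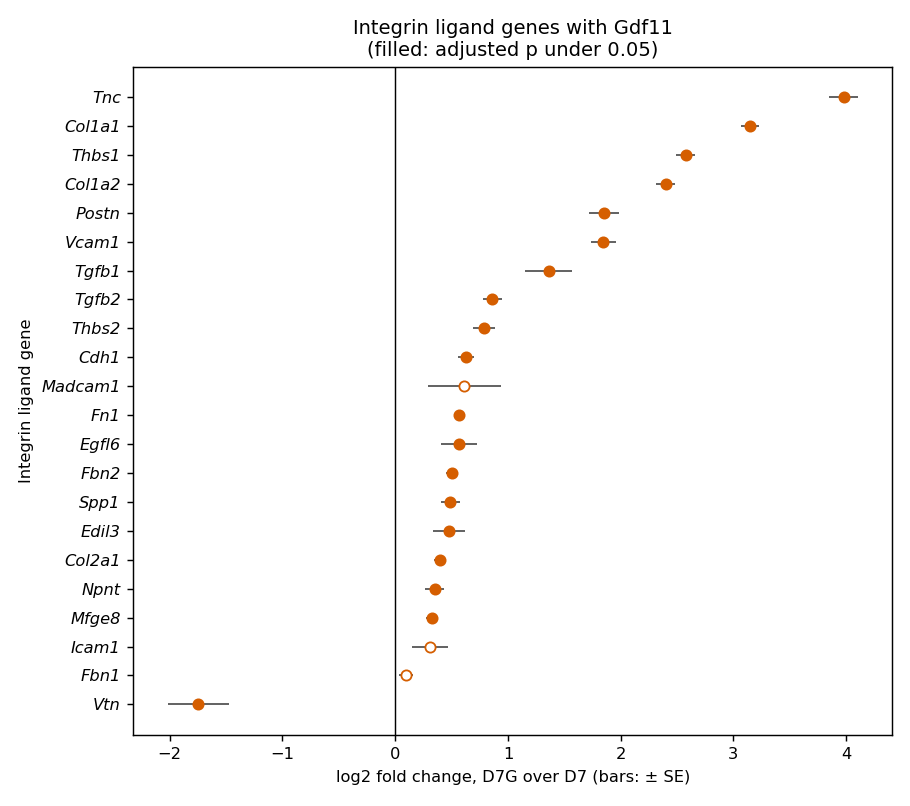
Log2 fold change of D7G over D7 (horizontal axis, bars ± SE) for the 22 tested integrin ligand genes other than laminins (vertical axis), with filled points at an adjusted p under 0.05. Every point but that of Vtn lies to the right of 0. Of those to the right, 18 are called, and Madcam1, Icam1 and Fbn1 are open.

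The same ligands had mostly gone down before. In D6 against D3, 15 of 22 were lower and 5 higher, with a median of -1.94 beside -0.01 over all genes, of which 33.3% were lower and 32.4% higher. Col1a1, Col1a2 and Postn are also among the 6 of 7 feeder markers lower in this comparison (median -3.58), whose part was not tested. Col1a2 was -4.32 ± 0.10 (adjusted p = 9.29e-18), Col1a1 -3.58 ± 0.10 (adjusted p = 1.25e-16) and Madcam1, the mucosal ligand of the alpha4 and beta7 receptor, -4.86 ± 0.24 (adjusted p = 5.19e-13), with 0.257 and 0.323 CPM in D6, against 9.19 and 7.92 in D3. Vtn had 4.31 and 3.16 CPM in D6, against 0 and 0.0308 in D3. In D3 against D2, 14 ligands were higher and 2 lower (Npnt 1.74 ± 0.08, adjusted p = 3.02e-13), and in D7 against D6, 15 were higher and 0 lower (Thbs2 2.34 ± 0.14, adjusted p = 3.67e-10). Over all genes 29.6% were higher and 28.9% lower in D3 against D2, and 20.5% were higher and 15.6% lower in D7 against D6.

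Basement membrane partners of laminin split by collagen chain. Col4a5 and Col4a6, which encode the type IV collagen chains of a specialised network, had risen in D3 against D2 (Col4a6 4.33 ± 0.15, adjusted p = 2.49e-15) and again in D6 against D3 (2.15 ± 0.07, adjusted p = 1.16e-15). Col4a6 then had 59.3 and 62.0 CPM in D7G, against 124 and 125 in D7 (-1.03 ± 0.06, adjusted p = 7.66e-11), and Col4a5 fell by 0.63 ± 0.05 with Gdf11 (adjusted p = 3.62e-09). Col4a1 and Col4a2, the ubiquitous chains, rose by 0.36 ± 0.09 (adjusted p = 0.0029) and 0.39 ± 0.08 (adjusted p = 0.000554). Nid1, which encodes nidogen, the link between laminin and type IV collagen, had 95.6 and 94.0 CPM in D7G, against 48.9 and 45.8 in D7 (1.00 ± 0.06, adjusted p = 1.60e-11). Of the 12 tested partners, 7 were higher and 3 lower in D7G against D7, 5 higher and 7 lower in D6 against D3, 8 higher and 2 lower in D3 against D2 and 9 higher and 0 lower in D7 against D6. The shares over all genes were 22.5% and 18.2% in D7G against D7, 32.4% and 33.3% in D6 against D3, 29.6% and 28.9% in D3 against D2 and 20.5% and 15.6% in D7 against D6.

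Of 23 integrin activators, adaptors and adhesion kinases, 14 were higher and 2 lower in D7G against D7 (22.5% and 18.2% of all genes), and 5 were higher and 14 lower in D6 against D3 (32.4% and 33.3% of all genes). Fermt1, a kindlin that activates integrins, had 8.08 and 6.53 CPM in D7G, against 2.96 and 3.16 in D7 (1.25 ± 0.14, adjusted p = 5.76e-07), and 3.28 and 3.36 CPM in D6, against 12.3 and 14.2 in D3 (adjusted p = 3.50e-11). Tns2, a tensin that ties integrins to actin, was 1.08 ± 0.14 higher with Gdf11 (adjusted p = 4.00e-06), and Parvb, a parvin adaptor, was lower (-0.81 ± 0.06, adjusted p = 2.85e-09). The counts were 10 higher and 7 lower in D3 against D2 (29.6% and 28.9% of all genes) and 3 higher and 4 lower in D7 against D6 (20.5% and 15.6% of all genes). Of 13 other laminin receptor and glycosylation genes, 3 were higher and 3 lower in D7G against D7, shares close to the 22.5% and 18.2% of all genes, with a median of 0.09. Bcam, a receptor of the Lama5 chain, had 11.5 and 15.5 CPM in D6, against 120 and 135 in D3 (-3.24 ± 0.10, adjusted p = 6.94e-16). Dag1, the gene of dystroglycan, stood between 249 and 313 CPM in all libraries. This list had 6 higher and 5 lower in D6 against D3 (32.4% and 33.3% of all genes), 10 higher and 3 lower in D3 against D2 (29.6% and 28.9%) and 4 higher and 4 lower in D7 against D6 (20.5% and 15.6%).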

How the data were processed

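RNA-seq counts of 10 libraries were used. The deposited table holds raw counts per gene symbol with a gene length, and a second deposited table holds counts per Ensembl gene, which served as an alternative. The submitters' processing notes name featureCounts 1.6.3, HISAT2 2.1.0, STAR, limma and the build mm10, with no role for each. Counting options and the use of strand are not given in the sources used here, so reads of overlapping genes cannot be told apart. The authors' table of fold changes was not used.

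Counts were tested with R 4.3.3 and edgeR 4.0.16 (glmQLFit and glmQLFTest, TMM scaling, default filterByExpr, all 10 libraries, 1 coefficient per group, 5 residual degrees of freedom), with Benjamini-Hochberg adjustment over the 18818 genes tested and a threshold of 0.05. Depth was 31078950 to 33418015 counts per library. CPM are TMM-scaled. The level per kilobase is CPM divided by the deposited length, and the SD is over 2 libraries. Alternatives were DESeq2 1.42.0, limma-voom (limma 3.58.1), other scaling factors, other filters, the second table, the 2 groups alone, a replicate block and the omission of each library in turn, which leaves its group with 1 library that is assumed to vary like the other groups.

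The members and lists were chosen with earlier results of these data known. Full values are given for up to 10 called members per comparison with the largest fold change and at least 1 CPM in every library of a group, for up to 4 genes per list by the same rule, and for other members where their role needs them. Vcam1, Fn1, Vtn, Npnt, Dag1, Col4a1, Col4a2 and the markers given singly were named for their role, after their values were seen. Promoters are from RefSeq (GRCm38.p6). Among the members, 1 is counted in the totals but not reported singly here. Counting intervals cover counting error only.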

Additional observations from a re-analysis of the deposited data

How the results depend on the processing

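No member changed direction between alternatives while called. Of the called members, 15 of 20 kept their call under every alternative in D3 against D2, 21 of 25 in D6 against D3, 8 of 19 in D7 against D6, 18 of 26 in D7G against D7 and 25 of 28 in D7G against D6. Members lower in D7 against D6 numbered 2 with library totals as the scaling, against 4. Members at least 2-fold lower in D3 against D2 numbered 0 in the second table, against 1, because Itgam had too few counts there to be tested. Members lower in D6 against D3 and higher in D7G against D7 numbered 8 with DESeq2, against 14. The cause of the other 2 was not tested.

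With each library left out in turn, members lower in D7 against D6 ranged from 1 to 4, members at least 2-fold higher in D3 against D2 from 3 to 5, members at least 2-fold lower in D3 against D2 from 1 to 3, and members at least 2-fold higher in D7G against D7 from 5 to 9 and lower from 0 to 1. Members higher in D7G against D7 ranged from 19 to 23 without a library and numbered 17 with DESeq2.

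No pairing of samples by replicate number was seen: differences between replicates correlated at -0.0758 to 0.0999 between groups. Such weak correlations do not exclude a pairing. With a replicate block, members higher in D7 against D6 numbered 16, against 15. The shares of subunits and ligand classes moved by more than the SD of replicates for 39 values and not for 60 with the second table, for 88 and not 11 without division by length, and for 19 and not 1 with the transcript length. Fold changes of members under about 1 CPM in a group rest on few counts. Among these members were Itga2, Itga11, Itgae, Itgam, Itgb2, Itgb6 and Lama2. Lama4 with 7 and 12 counts in the D6 libraries, and Lamc3 with 11 to 20 in those of D2 and D3, were others.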
